A study of Mus musculus with 36 samples.

Results

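The genes described here encode the receptors and ligands of 3 related growth factor systems: the VEGF receptors Kdr (Flk1, VEGFR2), Flt1 (VEGFR1) and Flt4 (VEGFR3), the PDGF receptors Pdgfra and Pdgfrb, the stem cell factor receptor Kit, and the ligands Vegfa, Vegfc, Pdgfa and Kitl. They were chosen by name, as a list of 10 symbols, and matched to Ensembl identifiers through GENCODE release M21. All 10 were found among the 49671 gene identifiers counted in each of 36 RNA-seq libraries, and all 10 passed the filter on low counts in each of 12 comparisons.

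VEGF, PDGF and Kit receptors are cell surface tyrosine kinases that are switched on when a ligand brings a pair of receptor chains together. In the gastrulating embryo Kdr marks mesoderm that gives rise to blood vessels, blood and heart, Pdgfra marks paraxial and cardiac mesoderm, and cells that carry both are used as a source of cardiac progenitors. Kit and its ligand Kitl are known for germ cells, blood stem cells and pigment cells, and Kit is also made by pluripotent stem cells.

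The cells came from a mouse embryonic stem cell line with a dox (doxycycline) switch for forced expression of Mesp1, a transcription factor gene of early cardiovascular mesoderm. The growth record gives hanging drops in serum for every library, those labelled 2i included. All libraries carry the inducible line's labels and no library was labelled as lacking the transgene, so an effect of dox itself and an effect of Mesp1 cannot be told apart, and Mesp1 counts cannot be split into a transgene and an endogenous part. Whether replicates came from separate cultures is not in the labels, and a p-value therefore reflects only how far these libraries spread.

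Wild-type cells of batch 1 gave 2 libraries at 0 h and, for both later times (12 h and 24 h), 2 uninduced and 2 induced libraries, with hours counted from a stage labelled d2-5. Batch 2, also wild type, gave 2 libraries at 0 h and, at 24 h, 2 uninduced and 4 induced. Batch 3 held induced cells of 24 h alone, 2 wild-type libraries and 2 with Zic2 knocked out. Stem cells in 2i gave 2 libraries without and 2 with dox, all labelled 24 h. The pair of kinase inhibitors in that medium holds cells in the naive state. On day 4 of differentiation wild-type cells sorted as positive for both Flk1 and Pdgfra gave 5 libraries (double positive, replicates 1 to 5), cells negative for both gave 3 (double negative, replicates 3 to 5), and unsorted embryoid bodies gave 2 (bulk, with an unexplained tag ND in their titles). The treatment record names dox for every library, and the labels do not say whether the day 4 cells received it.

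Gene totals ran from 12126604 to 51940589 counts a library, and levels are given in CPM, that is, relative to a library's gene total on a fixed scale shared by all libraries. Genes of naive pluripotency summed to 5093 to 5981 CPM in 2i and to 63.3 to 456 elsewhere, and at 24 h in batches 1 and 2 Mesp1 stood at 0.808 to 45.2 CPM without and 42.9 to 543 with dox. These ranges overlapped across the batches and were apart within each batch. The summed level of primitive streak genes was 15.6 to 16.4 CPM in 2i without dox. At 24 h without dox in batches 1 and 2 it was 974 to 2075. In bulk RNA, fewer cells of a type and less RNA per cell cannot be told apart, and this holds for every level below.

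Pdgfra, Kit and Kdr are neighbours on chromosome 5 (GRCm38 coordinates from GENCODE). Pdgfra (ENSMUSG00000029231) lies at chr5:75152292-75198215 on the plus strand, Kit (ENSMUSG00000005672) at chr5:75574916-75656722 on the plus strand, and Kdr (ENSMUSG00000062960) at chr5:75932827-75978458 on the minus strand. A gap of 377 kb separates Pdgfra from Kit and one of 276 kb separates Kit from Kdr, with 0 protein-coding genes in either, and the 3 genes span 826 kb. The sequences before their starts are shown because Kit differed in pattern from its neighbours Pdgfra and Kdr across the states of this study. They are the bases upstream of the RefSeq start on GRCm38.p6, read along the gene, with bases inside a GENCODE transcript left out, and capitals mark the E-box CANNTG, the core that Mesp1 and other basic helix-loop-helix factors can bind.
Pdgfra, chr5:75152001-75152250, plus strand: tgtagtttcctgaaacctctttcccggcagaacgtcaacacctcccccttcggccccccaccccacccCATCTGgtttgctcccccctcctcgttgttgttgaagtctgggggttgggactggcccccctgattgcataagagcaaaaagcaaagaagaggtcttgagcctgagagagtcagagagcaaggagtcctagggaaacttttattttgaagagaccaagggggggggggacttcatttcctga
Kit, chr5:75574737-75574915, plus strand: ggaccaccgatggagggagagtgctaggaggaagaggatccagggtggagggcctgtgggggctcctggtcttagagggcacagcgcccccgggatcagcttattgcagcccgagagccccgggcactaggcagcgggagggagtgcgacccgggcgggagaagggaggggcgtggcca
Kdr, chr5:75978459-75978705, minus strand: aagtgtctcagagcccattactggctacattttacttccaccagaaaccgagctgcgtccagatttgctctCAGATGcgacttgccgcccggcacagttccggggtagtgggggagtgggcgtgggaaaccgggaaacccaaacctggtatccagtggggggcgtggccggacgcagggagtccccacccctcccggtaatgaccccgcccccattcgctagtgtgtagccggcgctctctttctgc
One E-box stood in the Pdgfra window (CATCTG, first base at position -182 from the start) and one in the Kdr window (CAGATG, at -179), and the Kit window held none. CANNTG was found on either strand in 66.2% of 32851 RefSeq windows of 250 bases, so a match is common. The GC box GGGCGG, found in 32.7% of them on either strand, was in the Kit and Kdr windows and not in the Pdgfra window. Of the 10 genes, 9 had a RefSeq window, and the windows of all 6 others (Flt1, Flt4, Kitl, Pdgfa, Vegfa and Vegfc) held GGGCGG. The E-box was also in the Flt4 window (at -236) and before 1 of the Vegfa starts (at -186 and -178), and not in those of Flt1, Kitl, Pdgfa and Vegfc. A match in such a window is a description of its letters only.

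**Figure D1:**
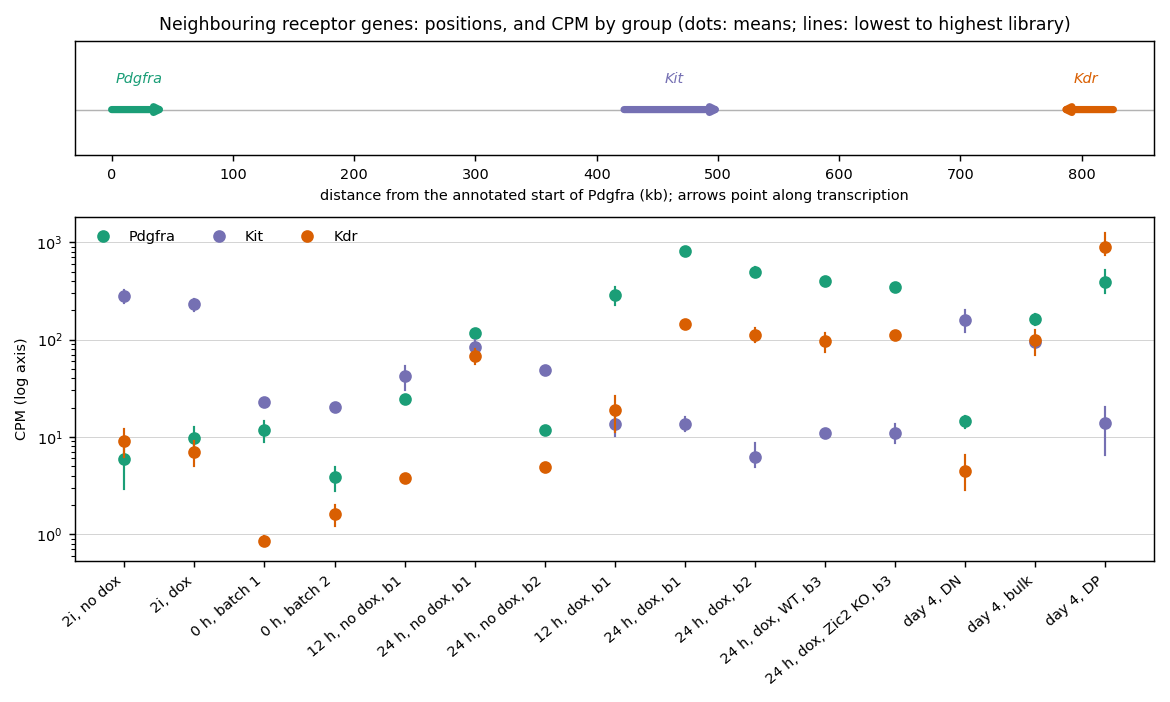
Top, positions of Pdgfra, Kit and Kdr as distance in kb from the annotated start of Pdgfra, with arrows along transcription; bottom, CPM on a log axis in the 15 groups, with dots for group means and lines from the lowest to the highest library. Pdgfra and Kdr are both high in induced and double positive cells, where Kit is low, while Kit is the highest of the 3 in 2i, at 0 h and in double negative cells.

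Over the first day without dox, 7 of the 10 genes rose from 0 h to 24 h, none fell, and 3 (Flt4, Kitl and Vegfc) were not called. Calls were made at an adjusted p below 0.05 in edgeR's quasi-likelihood test with Benjamini-Hochberg adjustment over all genes tested, with both batches in 1 fit. Of all 18592 genes, 25.1% were called in that comparison. With dox against without at 24 h, 5 genes rose (Kdr, Pdgfra, Pdgfrb, Vegfa and Vegfc), 2 fell (Kit and Pdgfa) and 3 were not called (Flt1, Flt4 and Kitl), where 30% of all genes were called. The median log2 fold change was 1.25 over the 10 genes and 0.01 over all genes for the first of these, and 1.01 and 0.02 for the second. Both comparisons use the same 24 h libraries without dox.

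At 12 h, dox raised Pdgfra and lowered Kit and Pdgfa, and the other 7 genes were not called, where 5.66% of all genes were. From 0 h to 12 h without dox none of the 10 was called by edgeR or DESeq2 and 2 (Flt1 and Pdgfa) had an unadjusted p below 0.05, where 0.317% of all genes were called (0.274% higher, 0.043% lower). Between 12 h and 24 h with dox, Kdr, Pdgfra, Pdgfrb, Vegfa and Vegfc rose and none of the 10 fell, where 17.4% of all genes were called (8.35% higher, 9.05% lower). Without replicate 1 of 12 h with dox, only Pdgfrb of the 10 kept the call, and fewer of all genes were called. The log2 fold changes without it, with 1 library left at 12 h, were 3.05 for Kdr (3.61 with all libraries), 1.92 for Pdgfra (2.25), 1.28 for Vegfa (1.31) and 1.61 for Vegfc (2.01). Libraries of 12 h are in batch 1 alone, so a comparison of 12 h with another time rests on a batch term shared by all states. Within batch 1, group means with dox went from 18.8 CPM at 12 h to 144 at 24 h for Kdr and from 287 to 813 for Pdgfra. They went from 5.84 to 36.1 CPM for Pdgfrb, 23.7 to 53.8 for Vegfa and 2.63 to 12.5 for Vegfc.

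**Figure D2:**
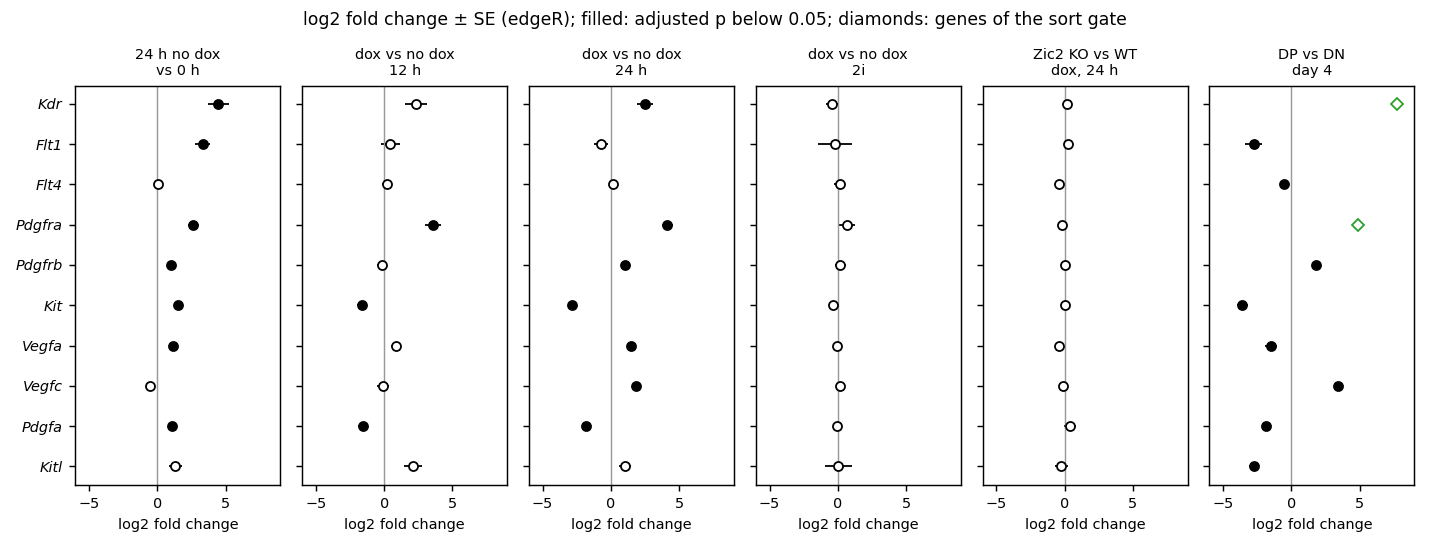
log2 fold changes (dots) with standard errors (lines) of the 10 genes in 6 comparisons, from edgeR; filled dots have an adjusted p below 0.05, and open diamonds are Kdr and Pdgfra in sorted cells, where they defined the gate. Pdgfra (4.13) and Kit (-2.83) are the farthest from 0 in the panel of dox at 24 h, and no dot is filled in the 2i and Zic2 panels.

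Kdr encodes the main signalling receptor of VEGF-A, and its level spanned from 0.764 to 1260 CPM over the 36 libraries. In batch 1 it stood at 0.951 and 0.764 CPM at 0 h, 4.06 and 3.42 at 12 h without dox, and 79.5 and 56.5 at 24 h without dox. With dox in batch 1 it stood at 11.1 and 26.5 CPM at 12 h and at 145 and 142 at 24 h. Each induced library of batch 1 was thus above the uninduced ones of its time.

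In batch 2 Kdr stood at 1.22 and 2.01 CPM at 0 h, 5.37 and 4.33 at 24 h without dox, and 107, 131, 109 and 94.2 at 24 h with dox. The uninduced level at 24 h therefore differed between batches by more than 10 times, while the induced levels lay within 2 times of each other. From 0 h to 24 h without dox the log2 fold change was 4.47 ± 0.75 (SE, edgeR, adjusted p 0.000507). With dox at 24 h Kdr rose 5.65-fold (log2 2.50 ± 0.59, adjusted p 0.00344), and the 12 h effect (2.35 ± 0.81, adjusted p 0.124) did not pass. Without replicate 2 of the uninduced batch 2 libraries the 24 h effect was 1.86 and still called.

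Flt1 encodes a receptor that binds VEGF-A tightly but signals weakly, and a secreted form of it traps the ligand. In batch 1 its level was 11.1 and 6.88 CPM at 0 h, 27.8 and 28.2 at 12 h uninduced, 36.3 and 39.0 at 12 h induced, 97.1 and 88.8 at 24 h without dox, and 14.8 and 14.5 at 24 h with dox. In batch 2 it was 4.33 and 6.72 CPM at 0 h, 56.9 and 60.8 at 24 h without dox, and 26.7, 84.1, 100.2 and 72.2 with dox. All uninduced libraries at 24 h were above those at 0 h, and the rise over the day was 9.91-fold (log2 3.31 ± 0.56, adjusted p 0.000501). The induced libraries of batch 1 lay far below the uninduced ones, and those of batch 2 lay on both sides of them, so the joint dox effect (-0.74 ± 0.51, adjusted p 0.316) was not called.

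Flt4 encodes the receptor of VEGF-C, known from lymphatic vessels. Its group means ran from 7.40 CPM in 2i without dox to 32.2 in the wild-type libraries of batch 3, the narrowest relative range of the 10 genes. From 0 h to 24 h all libraries of batches 1 and 2 lay between 13.5 and 27.0 CPM, with dox and without. No comparison of time or dox called it.

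**Figure D3:**
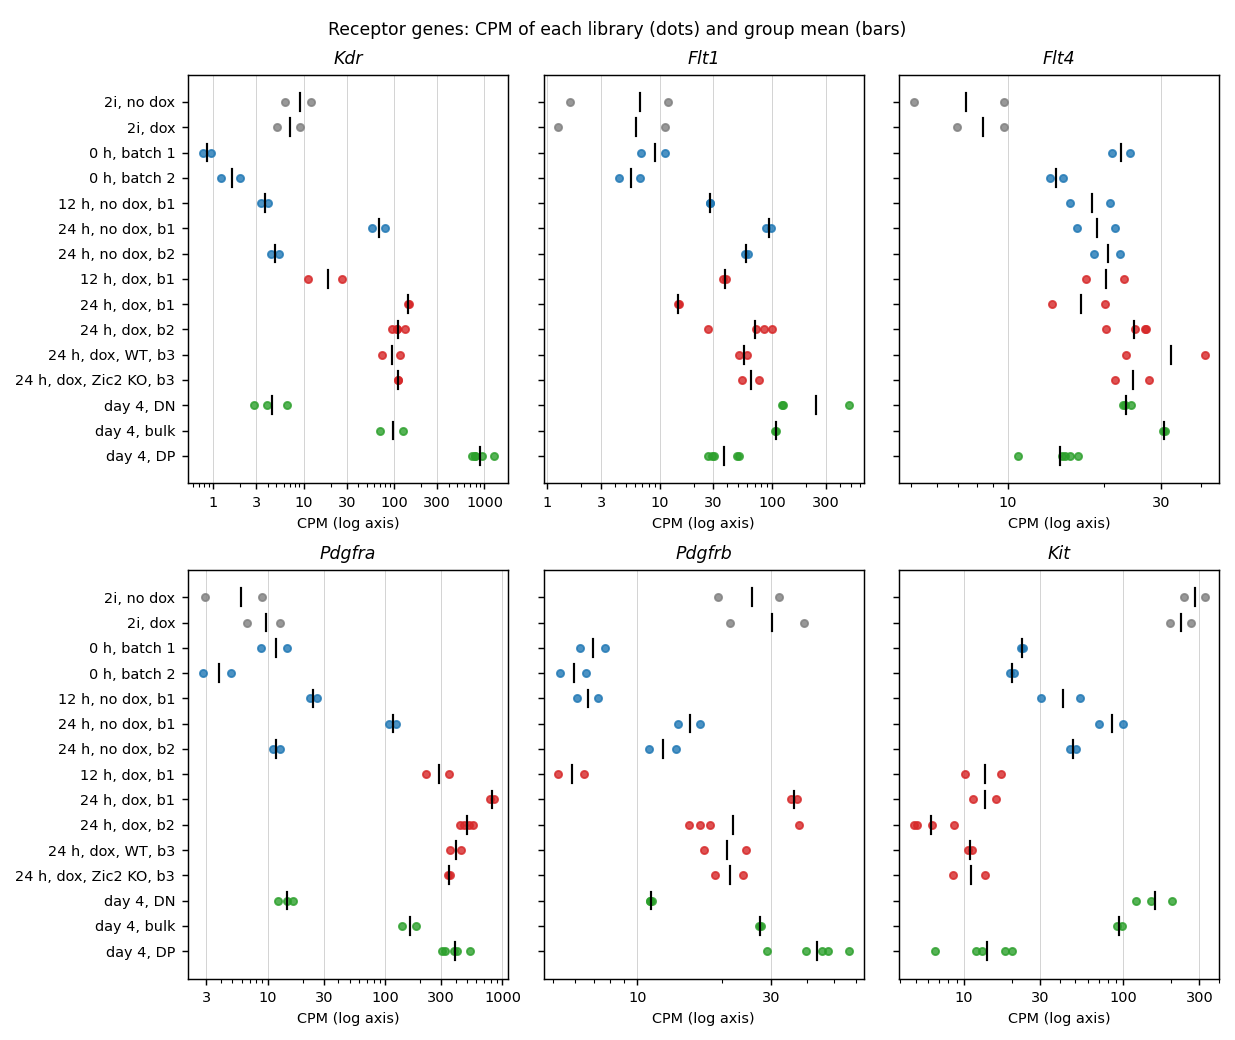
CPM (log axis) of the 6 receptor genes in each library (dots) of 15 groups, with group means as bars; blue is 0 h or no dox, red is dox, green is day 4 and grey is 2i, and b1 to b3 are the labelled batches. Kdr and Pdgfra move from under 15 CPM at 0 h to at least 73.7 and 340.8 CPM at 24 h with dox outside 2i. Kit moves the opposite way.

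Pdgfra encodes the receptor of PDGF-A. Its level in batch 1 was 8.84 and 14.7 CPM at 0 h, 23.0 and 26.1 at 12 h uninduced, 225 and 349 at 12 h induced, 124 and 108 at 24 h without dox, and 840 and 787 at 24 h with dox. In batch 2 it was 4.86 and 2.78 CPM at 0 h, 11.02 and 12.6 at 24 h without dox, and 469, 436, 557 and 522 with dox. No induced library overlapped an uninduced one at either time.

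The 24 h dox effect on Pdgfra was 17.6-fold (log2 4.13 ± 0.42, adjusted p 9.99e-07), and the 12 h effect 12.0-fold (3.58 ± 0.56, adjusted p 0.000797). Both held in edgeR with any single library left out. Without dox it rose 2.64 ± 0.42 on the log2 scale over 24 h (adjusted p 0.000343). Of its exon bases, 6.50% are shared with overlapping genes, and since strand use in counting is not given in the sources used here a small part of its counts is uncertain.

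Pdgfrb encodes the receptor of PDGF-B, known from pericytes and smooth muscle, and lies on chromosome 18. At 0 h its 4 libraries lay between 5.32 and 7.67 CPM, and at 12 h those without dox (6.10 and 7.24) and with dox (5.23 and 6.44) overlapped. At 24 h it stood at 14.0 and 16.8 CPM without and 35.3 and 36.8 with dox in batch 1, and at 13.7 and 10.97 without and 37.5, 15.2, 18.1 and 16.7 with dox in batch 2. The induced libraries were above the uninduced ones of their own batch, by a narrow margin for 3 of the 4 in batch 2. The joint dox effect was 1.01 ± 0.23 (log2, adjusted p 0.00254), and the rise over 24 h without dox was 1.03 ± 0.25 (adjusted p 0.00736).

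Kit, the stem cell factor receptor, went up over time without dox and down with dox. In batch 1 it stood at 22.8 and 23.4 CPM at 0 h, 30.5 and 53.3 at 12 h uninduced, 10.2 and 17.0 at 12 h induced, 70.1 and 99.0 at 24 h without dox, and 11.4 and 15.9 at 24 h with dox. In batch 2 it stood at 20.8 and 19.6 CPM at 0 h, 50.3 and 46.4 at 24 h without dox, and 8.66, 4.85, 5.08 and 6.35 with dox. Every induced library was below every library at 0 h as well as below those of its own time.

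The dox effect on Kit at 24 h was a 7.08-fold fall (log2 -2.83 ± 0.23, adjusted p 1.19e-07), and the rise without dox was 2.80-fold (1.48 ± 0.25, adjusted p 0.00057). At 12 h the dox effect was -1.61 ± 0.36 (adjusted p 0.011), and it was not called without replicate 2 of the uninduced libraries (-1.104) or without replicate 1 of the induced ones (-1.24). Of 6 germ cell markers tested of 7 listed, 3 fell with dox at 24 h (Kit, Tfap2c at -2.86 and Prdm1 at -2.01) and 0 rose. Of all genes, 14.6% were called lower there and 15.4% higher. The level summed over the 6 listed markers other than Kit was 43.5 to 45.6 CPM without and 20.5 to 26.3 with dox in batch 1, and 76.6 to 77.7 without and 26.9 to 52.0 with dox in batch 2. That of naive pluripotency genes was 265 to 434 without and 63.3 to 139 with dox. The part of either in the result was not tested.

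Vegfa encodes the ligand of Kdr and Flt1. In batch 1 it stood at 8.06 and 9.84 CPM at 0 h, 15.1 and 11.4 at 12 h uninduced, 24.2 and 23.2 at 12 h induced, 30.2 and 19.5 at 24 h without dox, and 64.0 and 43.6 at 24 h with dox. In batch 2 it stood at 7.07 and 3.32 CPM at 0 h, 9.98 and 10.2 at 24 h without dox, and 52.6, 18.2, 27.4 and 36.7 with dox. Induced and uninduced libraries did not overlap within a batch at 24 h. The dox effect at 24 h was 2.74-fold (log2 1.46 ± 0.26, adjusted p 0.000372), and the rise without dox was 1.17 ± 0.29 (adjusted p 0.00717).

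Vegfc encodes a ligand of Flt4 and Kdr. Its 8 libraries at 0 h and 24 h without dox lay between 2.65 and 6.18 CPM, and the 12 h libraries between 1.96 and 3.29 with or without dox. At 24 h with dox it stood at 12.1 and 12.8 CPM in batch 1 and 15.4, 7.04, 7.73 and 6.46 in batch 2, above every library of these batches without dox. The dox effect at 24 h was 3.53-fold (log2 1.82 ± 0.29, adjusted p 0.000106), against -0.10 ± 0.43 at 12 h (adjusted p 0.9999). The difference between these effects (1.92 ± 0.51) had an adjusted p of 0.106 in edgeR and 0.0187 in DESeq2. None of the 10 genes was called for this difference by edgeR, and 3 (Pdgfrb, Kit and Vegfc) had an unadjusted p below 0.05, where 0.522% of all genes were called (0.194% higher, 0.328% lower).

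Pdgfa encodes the main ligand of Pdgfra, and moved opposite to its receptor with dox. In batch 1 it stood at 5.43 and 5.87 CPM at 0 h, 10.5 and 11.7 at 12 h uninduced, 3.19 and 4.11 at 12 h induced, 18.03 and 15.5 at 24 h without dox, and 3.65 and 3.65 at 24 h with dox. In batch 2 it stood at 5.78 and 5.41 CPM at 0 h, 8.48 and 8.97 at 24 h without dox, and 2.64, 4.61, 2.58 and 2.57 with dox. No induced library of these batches reached an uninduced one at 0 h, 12 h or 24 h.

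Pdgfa fell 3.58-fold with dox at 24 h (log2 -1.84 ± 0.20, adjusted p 2.55e-06) and 3.00-fold at 12 h (-1.59 ± 0.31, adjusted p 0.00412). The 12 h call was lost without replicate 1 of the induced libraries (-1.36). Without dox Pdgfa rose 1.06 ± 0.22 on the log2 scale over 24 h (adjusted p 0.00233). Of its exon bases 26.1% are shared with 6330403L08Rik, so its counts are uncertain to that extent.

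Kitl encodes stem cell factor, the ligand of Kit. It stood at 2.36 to 3.78 CPM in the 4 libraries at 0 h, at 4.08 and 3.73 at 12 h without dox and at 18.2 and 15.5 at 12 h with dox. At 24 h it stood at 18.6 and 9.34 CPM without and 15.2 and 10.2 with dox in batch 1, and at 3.29 and 2.57 without and 8.07, 12.9, 26.8 and 13.4 with dox in batch 2. The groups overlapped at 24 h in batch 1 and were apart in batch 2 and at 12 h. None of these differences was called by edgeR: the dox effect was 2.13 ± 0.64 at 12 h (log2, adjusted p 0.0654) and 1.02 ± 0.45 at 24 h (adjusted p 0.103). Without the uninduced replicate 1 of batch 1, the latter was 1.54 and was called (adjusted p 0.00876, against up to 0.401 with another library left out). DESeq2 called both dox effects, with adjusted p-values of 0.0129 at 12 h and 0.0382 at 24 h.

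**Figure D4:**
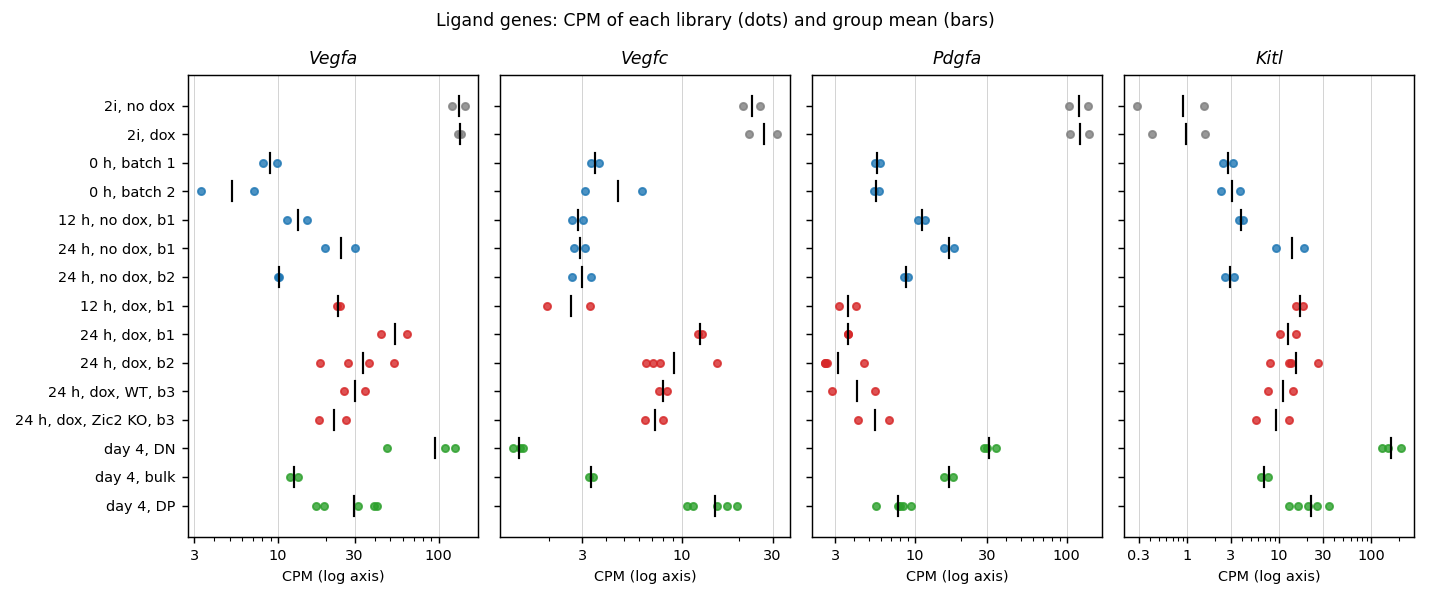
CPM (log axis) of the 4 ligand genes in each library (dots) of 15 groups, with group means as bars; blue is 0 h or no dox, red is dox, green is day 4 and grey is 2i. Vegfa, Vegfc and Pdgfa are highest in 2i and Kitl is lowest there, below 2 CPM.

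The dox effect at 24 h differed between the batches for 3 of the 10 genes, Kdr, Flt1 and Pdgfra, each with the larger log2 value in batch 2, where 0.629% of all genes were called for this difference (0.554% higher, 0.0753% lower). The difference between the batches was 3.45 ± 0.43 for Kdr (log2, edgeR, adjusted p 0.00134), 2.61 ± 0.33 for Pdgfra (adjusted p 0.00148) and 2.96 ± 0.54 for Flt1 (adjusted p 0.0192). The Flt1 difference was not called in 6 of the 10 fits that left out 1 library (lowest value 2.75, highest 3.23). In batch 1 alone the dox effect on Kdr was 1.08 (adjusted p 0.0507), on Pdgfra 2.80 (0.000135) and on Flt1 -2.68 (4.65e-05). In batch 2 alone they were 4.52 (2.31e-05), 5.399 (2.31e-05) and 0.27 (0.698).

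Kitl showed a like difference (2.54 ± 0.59, adjusted p 0.0742), which was not called with all libraries. Its dox effect was -0.15 in batch 1 alone (adjusted p 0.805) and 2.39 in batch 2 alone (adjusted p 0.00834). Pdgfrb was called in batch 1 alone (1.23, adjusted p 0.0028) and not in batch 2 alone (0.84, adjusted p 0.159). The difference between the batches was not called for it (-0.38 ± 0.46). For dox at 24 h, 3118 of all genes were called in batch 2 alone, against 5584 with both batches in 1 fit. Kit, Pdgfa, Vegfa and Vegfc were called in the same direction in each batch alone. The rise over 24 h without dox was called in each batch alone for Kdr (6.24 and 1.53), Flt1 (3.30 and 3.36), Pdgfra (3.23 and 1.57) and Kit (1.81 and 1.21). Pdgfrb (1.07 and 1.00), Pdgfa (1.495 and 0.59), Vegfa (1.40 and 0.90) and Kitl (2.24 and -0.12) were called in batch 1 alone and not in batch 2 alone. Over that time 658 of all genes were called in batch 2 alone, against 4675 with both batches in 1 fit. Whether the rise without dox differed between the batches was not tested.

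The uninduced state at 24 h was the one in which the batches differed most for Kdr and Pdgfra. Without dox at 24 h, primitive streak genes summed to 1935 to 2075 CPM in batch 1 and 974 to 1284 in batch 2, cardiac progenitor genes to 114 to 138 and 9.78 to 12.5, and Mesp1 stood at 41.5 and 45.2 CPM against 1.505 and 0.808. The part of these levels in the batch difference was not tested.

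**Figure D5:**
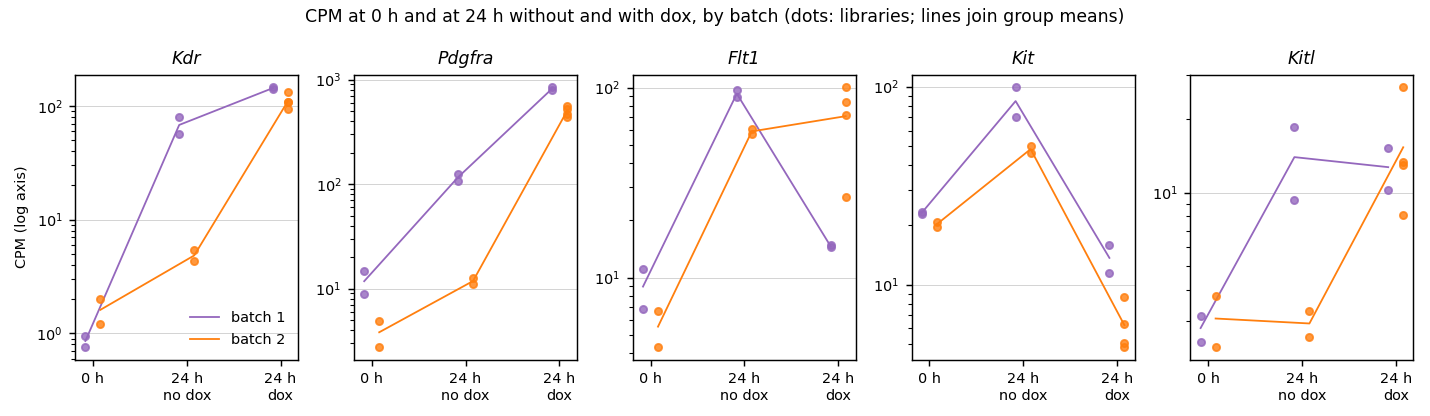
CPM (log axis) of 5 of the genes at 0 h and at 24 h without and with dox, for batch 1 (purple) and batch 2 (orange), with dots for libraries and lines joining group means. Without dox Kdr and Pdgfra reach 56.5 to 79.5 and 108 to 124 CPM in batch 1 and stay below 13 CPM in batch 2, and the dox libraries of Flt1 lie near 15 CPM in batch 1.

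In 2i the order of the 10 genes was different from that in differentiating cells. Kit stood at 240 and 325 CPM without dox and 195 and 264 with dox, Pdgfa at 103 and 139 without and 105 and 141 with, and Vegfa at 121 and 146 without and 138 and 133 with. Group means of Kit, Pdgfa and Vegfa were higher here than in any other state, as was that of Vegfc (25.7 and 20.9 CPM without, 31.6 and 22.6 with dox). Single double negative libraries of day 4 overlapped those of 2i for Kit and Vegfa. Kdr (5.04 to 12.1 CPM), Pdgfra (2.91 to 12.7), Flt1 (1.25 to 11.8) and Kitl (0.291 to 1.56) were low in all 4 libraries. In each condition replicate 2 had the higher level of all these genes but Vegfa and Vegfc.

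For dox in 2i none of the 10 genes was called by edgeR or by DESeq2, with 0 of 10 at an unadjusted p below 0.05, where 0% of all 18534 genes were called by edgeR. That fit did not call Mesp1 either, at 85.4 and 119 CPM with dox and 0.613 and 1.09 without (log2 6.90 ± 0.36, adjusted p 0.146), so the absence of calls does not show that the 10 genes were unchanged. With replicate number as a block edgeR called 633 of all genes, and of the 10 it called Pdgfra (0.71, adjusted p 0.0362). Deviations of same-numbered 2i libraries had a correlation of 0.802. Pdgfra stood at 6.60 against 2.91 CPM in replicate 1 and 12.7 against 8.94 in replicate 2. The induced differentiating cells of batches 1 and 2 had 225 to 840 CPM.

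In batches 1 and 2 the dox effect at 24 h differed from that in 2i for 5 of the 10 genes. Of all genes, 7.04% were called for this difference (3.27% higher, 3.77% lower). Pdgfra had the larger effect in differentiating cells (difference 3.53 ± 0.77, adjusted p 0.00792), as did Vegfa (1.49 ± 0.42, adjusted p 0.0379) and Vegfc (1.66 ± 0.47, adjusted p 0.0348). Kit (-2.47 ± 0.40, adjusted p 0.000726) and Pdgfa (-1.81 ± 0.32, adjusted p 0.00144) had the stronger fall there. Kit and Pdgfa kept the call with any library left out. Vegfa and Vegfc each lost it in 9 of 14 such fits, and Pdgfra lost it without replicate 2 of 2i without dox (2.50). For Kdr the difference (2.94 ± 1.01, adjusted p 0.0961) was not called, except without replicate 1 of the uninduced 24 h libraries of batch 1 (3.38).

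The comparison of Zic2 knockout with wild-type cells, all with dox at 24 h, asks whether Zic2, a zinc finger transcription factor gene, alters the induced state. Zic2 itself stood at 74.7 and 108 CPM in the wild-type and 56.4 and 73.0 in the knockout libraries, so its transcript was still counted, and counts over the whole gene do not show whether the deleted part was lost. None of the 10 genes was called by edgeR or DESeq2 and 0 had an unadjusted p below 0.05, where 0% of 16518 genes were called by edgeR. Kdr stood at 73.7 and 118 CPM in wild-type and 112 and 109 in knockout libraries (0.21 ± 0.23), and Pdgfra at 445 and 360 against 341 and 356 (-0.20 ± 0.13). Kit stood at 11.2 and 10.7 CPM against 13.6 and 8.58 (0.02 ± 0.28). The genotypes overlapped for each of the genes but Pdgfra, whose nearest libraries stood at 355.6 and 359.8 CPM (edgeR, adjusted p 0.9996). With 2 libraries a genotype, such a gap does not set Pdgfra apart. The largest log2 difference was that of Vegfa (-0.44 ± 0.26), with 34.9 and 25.8 CPM in wild-type and 17.97 and 26.7 in knockout cells.

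On day 4 the sorted cells differed in all 8 of the genes that were not used for the gate. Pdgfrb and Vegfc were higher in double positive cells, and Flt1, Flt4, Kit, Kitl, Pdgfa and Vegfa were lower, where 25.6% of all 16868 genes were called (9.41% higher, 16.2% lower). The gate genes are given as a description: Kdr stood at 943, 777, 780.0, 1260 and 735 CPM in double positive replicates 1 to 5 and 3.95, 6.57 and 2.84 in double negative replicates 3 to 5. Pdgfra stood at 411, 327, 302, 524 and 387 CPM in double positive and 12.3, 16.4 and 14.6 in double negative cells. The levels in bulk cells, 69.3 and 127 for Kdr and 140 and 184 for Pdgfra, lay between. The tests below compare replicates 3 to 5 of both sorts.

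Among the other receptors, Kit was 13.0, 18.01, 11.9, 6.58 and 20.0 CPM in double positive replicates 1 to 5, against 120, 203 and 149 in double negative and 97.7 and 91.4 in bulk cells. The sorts did not overlap, and the difference was 12.1-fold (log2 -3.60 ± 0.41, edgeR, adjusted p 0.00106). Flt1 was 48.8, 30.1, 28.9, 50.7 and 26.8 CPM in double positive, 123, 485 and 125 in double negative and 108 and 107 in bulk cells. Double negative replicate 4 was near 4 times its fellows.

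The Flt1 difference was -2.77 ± 0.62 (adjusted p 0.016). It was -1.76 without double negative replicate 4 and still called, and it was not called without double positive replicate 3 (-2.62) or 5 (-2.59). Flt4 was 10.8 to 16.6 CPM in double positive and 22.9 to 24.3 in double negative cells (-0.54 ± 0.11, adjusted p 0.0101). Pdgfrb was 28.9 to 56.7 CPM in double positive and 11.1 to 11.3 in double negative cells (1.80 ± 0.17, adjusted p 0.000466). Neither overlapped between the sorts.

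Of the ligands, Kitl had the highest double negative level, with 133, 153 and 213 CPM against 12.9, 25.8, 20.7, 16.1 and 34.7 in double positive cells. The difference was 6.85-fold (log2 -2.78 ± 0.32, adjusted p 0.00111). Vegfa stood at 126, 48.1 and 110 CPM in double negative and 19.3, 31.5, 39.8, 17.4 and 41.6 in double positive cells (-1.49 ± 0.42, adjusted p 0.0403), and this call was lost in 5 of the 6 fits without 1 library (-1.702 to -1.20). Pdgfa was 28.3 to 34.2 CPM in double negative and 5.55 to 9.40 in double positive cells (-1.83 ± 0.15, adjusted p 0.000231). Vegfc went the other way, with 1.30 to 1.47 CPM in double negative and 10.7 to 19.6 in double positive cells, 10.5-fold higher (3.39 ± 0.24, adjusted p 0.000164).

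Other cell type markers moved between the sorts as well, where 9.41% of all genes were called higher and 16.2% lower in double positive cells. Of 8 tested cardiac progenitor genes 7 were higher and 0 lower, with sums of 713 to 1093 CPM in double positive and 98.3 to 138 in double negative cells. Of 7 paraxial mesoderm and mesenchyme genes 4 were higher and 0 lower. Naive pluripotency genes had 2 higher and 5 lower of 7. Their summed level went the other way, with 239 to 456 CPM in double positive and 81.5 to 144 in double negative cells. Primitive streak genes had 2 higher and 2 lower of 12, with sums of 778 to 2819 and 1064 to 2025 CPM. The 5 tested germ cell markers included 3 that were lower in double positive cells (Kit, Prdm1 at -3.05 and Dnd1 at -0.94), and the 6 listed markers other than Kit summed to 27.9 to 54.4 CPM against 106 to 177 in double negative cells. Of 5 tested extraembryonic endoderm genes, Sox17 was lower (-4.57) and Lama1 higher (1.37), with sums of 127 to 202 and 274 to 302 CPM. Of 13 tested endothelial and hemangioblast genes, 5 were higher and 1 lower, among them Etv2 (3.56), Fli1 (3.07) and Cdh5 (-2.16), with sums of 78.1 to 149 and 38.8 to 54.6 CPM. The part of these cells in the values of the 10 genes was not tested.

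Against bulk cells, with replicates 1 and 2 of each, Pdgfrb, Vegfc, Kitl and Vegfa were higher and Flt1, Flt4, Kit and Pdgfa lower in double positive cells, where 51.7% of all genes were called (22.9% higher, 28.8% lower). Vegfc stood at 3.27 and 3.44 CPM in bulk cells (2.37 ± 0.27, adjusted p 0.00129) and Pdgfrb at 27.0 and 27.6 (1.09 ± 0.10, adjusted p 0.000694). Kit was 5.45-fold lower in double positive cells (-2.45 ± 0.15, adjusted p 0.000133). Pdgfa stood at 17.7 and 15.6 CPM in bulk cells (-1.14 ± 0.19, adjusted p 0.0054). Flt4 was 30.9 and 30.5 CPM in bulk cells (-1.105 ± 0.17, adjusted p 0.00436).

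Kitl and Vegfa had levels in bulk cells below those of either sort: 6.35 and 7.56 CPM for Kitl and 11.9 and 13.3 for Vegfa. Double positive cells were 3.10-fold (1.63 ± 0.33, adjusted p 0.0128) and 2.25-fold (1.17 ± 0.23, adjusted p 0.0104) above them. Without bulk replicate 1 neither was called (Kitl 1.501, Vegfa 1.08), nor was Flt1 (-1.285, against -1.287 with all libraries). Without bulk replicate 2 Kitl (1.75) and Flt1 (-1.31) were not called. Of 10 immediate early genes of dissociation stress, 0 were higher and 6 lower in double positive than in bulk cells. Of all genes, 22.9% were called higher in this comparison and 28.8% lower. The stress genes summed to 290 to 406 CPM in bulk, 123 to 265 in double positive and 247 to 390 in double negative cells. The labels give no sort for the bulk cells, so sorting and population cannot be told apart there.

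Compared per length of exon, the gene of highest level among the 10 changed with the state. In 2i without dox Pdgfa (38.9 CPM per kb), Kit (31.7) and Vegfa (31.1) led. At 24 h with dox in batch 1 it was Pdgfra (81.1 CPM per kb), followed by Kdr (15.9) and Vegfa (12.5). In double positive cells Kdr (99.6 CPM per kb) was above Pdgfra (38.9), the reverse of their order at 24 h with dox. In double negative cells Kitl (28.1 CPM per kb), Vegfa (22.1), Flt1 (18.1) and Kit (17.7) led. Within groups of 2 libraries neighbours in these orders were not tested.

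Ordered by group mean, Kdr was highest in double positive cells (899 CPM, lowest library 735), then in the induced cells of batch 1, and the induced groups of batches 2 and 3 overlapped each other and bulk cells. Pdgfra was highest in induced cells of batch 1 (813 CPM), and the induced groups of batches 2 and 3 overlapped double positive cells. Flt1 and Kitl were highest in double negative cells (244 and 166 CPM), with no overlap with the group next in order. Kit was highest in 2i and lowest in induced cells of batch 2 (6.24 CPM). For Flt4, 12 of the 14 neighbouring pairs of groups overlapped.

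Across the 15 group means, on the scale log2(CPM + 0.5), the genes of the most alike pattern among the 10 were Kit and Pdgfa (Pearson r 0.939, and 0.911 over 36 libraries), followed by Kdr and Pdgfra (0.875 and 0.863). The gate was set on the products of Kdr and Pdgfra, which fixes part of that likeness. Without the double positive and double negative groups (13 groups, chosen after seeing the data) r was 0.893 for Kdr and Pdgfra, 0.947 for Kit and Pdgfa and 0.898 for Pdgfra and Kitl. Over all 15 groups Pdgfra and Kit had an r of -0.651 (-0.694 over libraries). Among 11753 protein-coding genes that reached 10 CPM in some group, those nearest to Pdgfra were Wnt2 (0.98), Wnt5a (0.967) and Kctd15 (0.967), the first 2 being Wnt ligands. Nearest to Kdr were Man1c1 (0.952), Pmp22 (0.951) and Rftn1 (0.943). Flt1 was nearest to Jag1 (0.954), a Notch ligand, Tnfaip3 (0.95) and Plekhg2 (0.929), and Flt4 to Arap3 (0.949), Pitpnm1 (0.935) and Mta1 (0.931).

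Kit was nearest to Gpr4 (0.976), Celsr1 (0.973) and Car11 (0.953), and Pdgfa to March2 (0.982), Cyp4f17 (0.964) and Mavs (0.963). Kitl was nearest to Tcf7l2 (0.954), a transcription factor of the Wnt pathway, Nfkb1 (0.935) and Sdk1 (0.932). Vegfa was nearest to Atxn7 (0.951), Fndc3b (0.947) and Tex264 (0.945), Vegfc to St3gal4 (0.956), Dkk3 (0.939) and Tgfbi (0.917), and Pdgfrb to Itgb5 (0.917), Tmem222 (0.916) and Vldlr (0.913). These are descriptions over groups that share batches and libraries. Over the 36 libraries instead, 15 of these 30 genes stayed among the nearest 3.

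The other genes of the same pathways gave a mixed picture with dox at 24 h. Of 13 tested of 14 listed family genes, 4 rose and 4 fell (median log2 -0.06, against 0.02 over all genes). Of all genes 15.4% were called higher and 14.6% lower. The VEGF and semaphorin coreceptor genes Nrp1 (2.58 ± 0.45, adjusted p 0.000267) and Nrp2 (2.55 ± 0.21, adjusted p 1.44e-07) rose, as did Csf1, the ligand of another receptor of the class that holds Kit (1.26 ± 0.29). Flt3, a receptor of that class known from blood progenitors (-2.89 ± 0.58), Pdgfb, the ligand of Pdgfrb (-1.28 ± 0.35), and Pdgfrl (-1.20 ± 0.23) fell. Nrp2 also rose at 12 h (2.21 ± 0.31), the single family gene called there, where 3.29% of all genes were called higher.

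Of 28 adaptors, kinases and phosphatases downstream of these receptors, 10 rose and 4 fell with dox at 24 h (median log2 0.18), where 15.4% of all genes were called higher and 14.6% lower. Ptprb, a receptor phosphatase of endothelial cells (2.33 ± 0.51), Lyn, a Src family kinase (1.83 ± 0.12), and the adaptor gene Gab2 (1.26 ± 0.20) rose. Shb, an adaptor that binds Kdr (-2.76 ± 0.24), Ptpn6, a phosphatase that limits Kit signalling (-1.19 ± 0.12), and Ptprj (-0.72 ± 0.16) fell. At 12 h 4 rose and 1 fell, led by Ptprb (3.90 ± 0.78) and Shb (-1.63 ± 0.35), where 3.29% of all genes were called higher and 2.37% lower. In sorted cells 4 were higher and 4 lower in double positive than in double negative cells, among them Ptprb (3.38 ± 0.64) and Shb (-2.28 ± 0.15). Of all genes 9.41% were called higher there and 16.2% lower.

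Vegfa is a target gene of the hypoxia response. The 17 other genes listed for that response, its transcription factor genes Hif1a and Epas1 among them, did not move as 1 group. With dox at 24 h 4 rose and 5 fell (median log2 -0.20), where 15.4% of all genes were called higher and 14.6% lower. Adm (1.71 ± 0.62), Epas1 (1.19 ± 0.25) and P4ha1 (0.74 ± 0.25) rose, and Ndrg1 (-2.90 ± 0.24), Pdk1 (-1.66 ± 0.21) and the glucose transporter gene Slc2a1 (-1.46 ± 0.18) fell. Between the sorts, 1 of 16 was higher (Egln3, 1.19 ± 0.20) and 5 were lower in double positive cells, led by Slc2a3 (-3.36 ± 0.42) and Slc2a1 (-1.86 ± 0.36). Of all genes 9.41% were called higher there and 16.2% lower.

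The marker lists of other cell types at 24 h with dox are read against the 15.4% of all genes called higher and 14.6% called lower. Of the endothelial and hemangioblast genes 7 of 15 tested rose and 0 fell, led by Fli1 (5.35) and Gata2 (5.06), of the cardiac progenitor genes 9 of 10 rose, and of paraxial mesoderm and mesenchyme genes 10 of 10. Of primitive streak genes 2 of 12 rose (Mesp1 at 4.52 and Tbx6 at 2.3) and 8 fell. Mesp1 is the gene that the dox switch forces, so its rise was set by the design and is not a marker result. Of naive pluripotency genes 1 of 10 rose and 3 fell, of blood genes 1 of 5 fell (Gata1, -1.84), of extraembryonic endoderm genes 1 of 10 rose (Lama1, 2.72), and of dissociation stress genes 1 of 9 rose and 1 fell.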

How the data were processed

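Whole read counts per Ensembl gene, 1 file a library, are what the authors deposited. Trimmomatic, STAR, HTSeq and DESeq2 on mm10 were used, per the submitters' processing notes (versions, order and settings, the annotation and strand use: not given in the sources used here). A library's gene total (12126604 to 51940589 counts) was the divisor for CPM, so 1 count stood for 0.0193 to 0.0825 CPM, and counting error sets only a lower limit on the error. GENCODE M21 (GRCm38) gave symbols and exon lengths to 49326 of 49671 identifiers; rows that name no gene (3.77% to 5.12% ambiguous and 3.52% to 10.1% without a feature, per library) were left out.

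Groups follow what the labels give for batch, genotype, hours, dox and sort. After filterByExpr and TMM scaling, every gene was tested by the 2-sided quasi-likelihood F test (robust fit) of edgeR 4.0.16 in R 4.3.3, with p-values adjusted over all genes by the Benjamini-Hochberg method and calls made at an adjusted p below 0.05. SE is that of the log2 fold change, worked back from the test as the absolute log2 fold change over the square root of F. 1 model with a batch term held the 18 libraries of batches 1 and 2, while batch 3, 2i and the day 4 cells had models of their own, and the 24 h and 2i dox effects were compared in a joint model of 22 libraries. The fits were tested on simulated data. Same-numbered double positive and double negative libraries deviated together (correlations 0.346, 0.523 and 0.449 over 16868 genes), so their numbers pair them; the paired fit changed no call among the 10 genes and is given in the closing section.

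The 10 genes, the 12 gene lists (family, signalling, hypoxia and 9 of cell type markers) and the tests were chosen with earlier results of these data known. From each list at most the 3 called genes of largest log2 change in each direction were named, and the 3 genes of highest Pearson r beside each of the 10. Alternatives were RLE scaling, no filter on low counts, DESeq2 1.42.0, no batch term, each batch alone, a replicate block and leaving out each library. Promoter windows came from RefSeq (GRCm38.p6). Python 3.11.15, pandas 2.3.3 and matplotlib 3.10.9 were used for levels and plots.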

Additional observations from a re-analysis of the deposited data

Results flagged for a closer look

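In 20 groups of 4 or more libraries (10 genes in each of the induced cells of batch 2 and the double positive cells), 3 held a library far from its fellows, where chance flags about 5%. All 3 were among the 4 induced 24 h libraries of batch 2. Replicate 1 had 37.5 CPM of Pdgfrb, with a gap to the next library of 0.87 of the group's range, and 15.4 CPM of Vegfc (0.859 of the range). Replicate 2 had 4.61 CPM of Pdgfa (0.967 of the range). Without replicate 1 the 24 h dox effects on Pdgfrb (0.82) and Vegfc (1.65) were still called.

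The 24 h dox effect differed between batch 2 and batch 1 for Kdr (3.45), Flt1 (2.96) and Pdgfra (2.61), as log2 values of batch 2 minus batch 1 from edgeR. It differed between differentiating cells and 2i for Pdgfra (3.53), Kit (-2.47), Pdgfa (-1.81), Vegfa (1.49) and Vegfc (1.66), as log2 values of 24 h minus 2i.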

How the results depend on the processing

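No result of the 10 genes in the 12 comparisons (120 in all) changed sign while called under any alternative. RLE scaling kept all 120 calls, DESeq2 kept 111 of the 116 it gave a value for and added 5, and the replicate block kept 115 and added 5. Of the single-library omissions 865 kept the call, 49 lost it and 6 added one. Without a filter on low counts 103 were kept, 15 added and 2 lost (Flt1 and Vegfa between the sorts), and the count of the 10 called became 6 at 12 h of dox (3 with the filter), 3 for 12 h against 0 h (0) and 4 for the 24 h minus 12 h effect (0). That last count was 1 with DESeq2 and 1 with the replicate block, Vegfc in each. Without a batch term 1 was called at 12 h of dox and 2 for 24 h against 12 h of dox (5), and Kdr at 24 h of dox (1.79) and Vegfa over 24 h without dox (1.22) were not called. In batch 2 alone 4 rose over 24 h without dox (7 in both). With 1 library left out the counts ran from 1 to 3 at 12 h of dox, 1 to 5 for 24 h against 12 h of dox, 2 to 5 for 24 h minus 2i and 5 to 8 for double positive against bulk. Of all genes, too, fewer were called at 12 h of dox with any library of that comparison left out. The same held for 24 h against 12 h of dox without replicate 1 of 12 h with dox. The cause of these shifts was not tested. Of 150 group levels, 134 moved by less than 1 SD with TMM library sizes.

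Of all genes, those called went from 1052 to 1628 without a filter and 349 without a batch term at 12 h of dox, from 59 to 605 without a filter, 238 with DESeq2 and 12 without a batch term for 12 h against 0 h, and from 3234 to 857 without a batch term for 24 h against 12 h of dox. They went from 97 to 873 (no filter), 482 (DESeq2) and 309 (block) for 24 h minus 12 h, and from 117 to 514, 255 and 443 for the batch difference. They went from 0 to 5 with DESeq2 for Zic2 and from 0 to 18 without a filter and 45 with DESeq2 in 2i. In batch 2 alone they went from 5584 to 3118 for dox at 24 h and from 4675 to 658 over 24 h without dox (2089 without a batch term). Against bulk cells they went from 10010 to 5112 with all 5 double positive libraries.

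With replicate number as a block, the sorted cells gave 7254 genes (4318 without it) with no change of call among the 10 genes, and 2i gave 633 genes (0) with 1 of the 10 genes called (0), Pdgfra. In the other comparisons with a block (2 pairs each) the labels give only a shared number. At 12 h and 24 h in batch 1, replicates 1 had 38246754 to 46525179 counts, with 8.67% to 9.46% without a feature. Replicates 2 there had 12325443 to 22224461 counts and 4.345% to 4.86%. Both 0 h libraries of batch 1 were near replicates 2 (4.997% and 4.74%). Correlations of same-numbered deviations were 0.802 in 2i, 0.60 and 0.579 for dox at 24 h and 12 h in batch 1, and as low as -0.0786 against bulk cells. Same-numbered libraries of 2i and of these batch 1 groups thus also deviated together, and the main fits held no block. The block added calls of Kitl at 12 h of dox (2.13), over 24 h without dox (1.26) and for the batch difference (1.96). Depth limits the low levels most: 1 count was up to 0.0825 CPM, and Kitl in 2i lay between 0.291 and 1.56 CPM.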

Other observations

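The other genes of the VEGF, PDGF and Kit families (neuropilins, further ligands and related receptors) were also compared between the sorted cells. Of 11 tested, 3 were higher in double positive than in double negative cells: Nrp2 (log2 2.57 ± 0.43, edgeR, adjusted p 0.00495), Nrp1 (1.53 ± 0.21, adjusted p 0.00196) and Csf1 (1.52 ± 0.43, adjusted p 0.0375). Pdgfrl was lower (-2.02 ± 0.18, adjusted p 0.000325). Of all genes 9.41% were called higher and 16.2% lower between the sorts. Over 24 h without dox 4 of 13 rose, among them Nrp2 (1.93 ± 0.23), Pdgfrl (1.68 ± 0.25) and Nrp1 (1.60 ± 0.52), and none fell. Of all genes 13.5% were called higher and 11.7% lower over that time. The dox effect on Nrp1 was larger in batch 2 than in batch 1 (difference 2.59 ± 0.49, adjusted p 0.0238).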
